A study of Mus musculus with 6 samples.

Results

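Notch signalling genes were followed in the mouse embryonic fibroblast line NIH3T3 through the transcripts of 8 genes: the receptors Notch1, Notch2 and Notch3, the ligands Jag1 and Dll1, and the transcriptional repressors Hes1, Hey1 and Heyl. They were taken as every probe set paired with 1 of these symbols alone, which gave 15 probe sets of 45101 on the array and 8 genes of 18193. Cells with mutant LPAR1 and cells with wild-type LPAR1 were each harvested at 0, 60 and 120 minutes, with 1 Affymetrix array per genotype and time and 6 arrays in all. LPAR1 binds lysophosphatidic acid, a growth-promoting lipid of serum, and signals through G proteins. The labels give neither the mutation nor the treatment that started the clock, nor how many clones or cultures were used. With 1 array per genotype and time, p-values rest on how unevenly the genotype difference runs over the times, pooled with other genes. They do not measure a spread between replicate arrays or between known cultures.

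In Notch signalling a ligand on 1 cell binds a receptor on its neighbour, the receptor is cut by a metalloprotease and then by gamma-secretase, and the freed intracellular domain enters the nucleus. There it joins the DNA-binding protein RBPJ and a Mastermind coactivator and switches on target genes, of which the HES and HEY repressors are the best known. Hes1 protein also represses its own gene, and in fibroblasts stimulated with serum its transcript is known to rise and fall again within hours. Hes1 can be induced by growth factor signals as well as by Notch receptors.

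Each deposited value is the intensity of 1 probe set on 1 array. Mean intensity per array lay between 299 and 308. Of 10 fibroblast markers 9 were measured, and all 9 were above an intensity of 39.2 on every array, whereas 4 of 4 measured immune markers and 4 of 5 endothelial markers were below it on every array. The exception was the endothelial cadherin gene Cdh5, above that level on the 3 mutant arrays (61.4 to 64.6) and below it on the wild-type arrays (22.4 to 27.4). The summed intensity of the endothelial list was 120 to 131 in mutant and 75.8 to 88.9 in wild-type cells, and its part in the results was not tested. The epithelial genes Epcam and Cdh1 were above that level on every array, with the 3 keratins of the list below it on all, and 2 of 5 neuronal markers were above it on every array. Lpar1 averaged 1483 ± 39.4 in mutant and 1305 ± 26.4 in wild-type cells (SD, n = 3 each) at its brightest probe set.

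The level of 39.2 is the 40th percentile of mean level over genes, and genes below it were left out of the filtered fit that gives the values below unless another is named. Tests used log2(intensity + 16) in limma, with genotype and time as additive terms and an adjusted p of 0.05 as threshold. All log2 differences below are on that scale unless another offset is named, and they understate changes of dim genes. Of the 8 genes 4 passed this filter: Notch2, Jag1, Notch1 and Hes1. Hes1 passed narrowly, at the 41.5th percentile, through its wild-type arrays, since its mutant mean lay below the filter level. Hey1, Heyl, Dll1 and Notch3 did not pass at any of their probe sets.

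**Figure D1:**
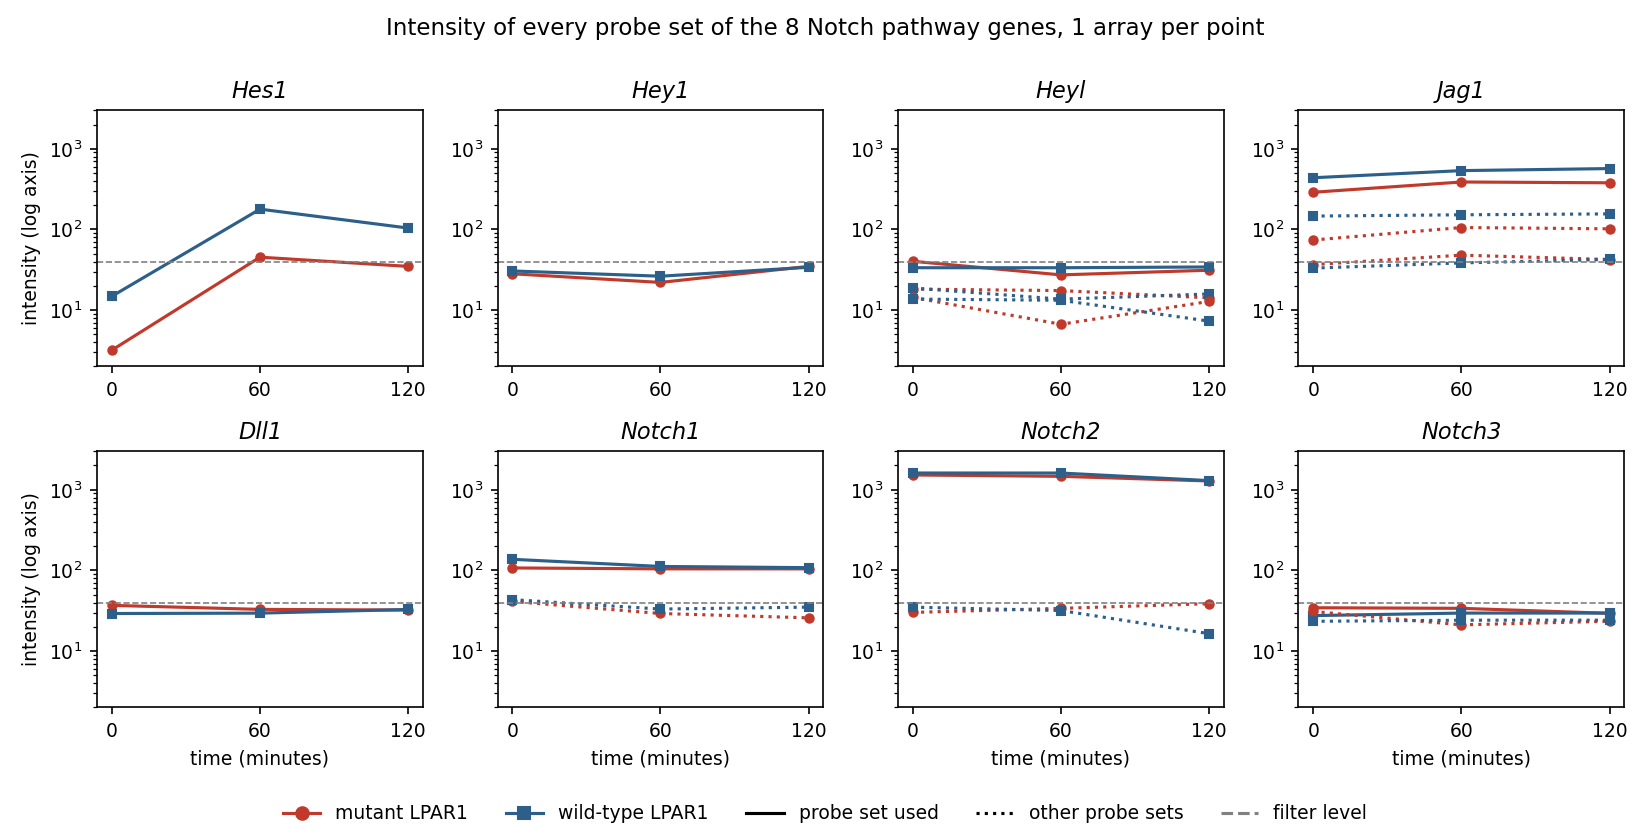
Intensity (log axis) against time in minutes for all 15 probe sets of the 8 genes, in mutant (circles) and wild-type (squares) cells, with 1 array per point. Solid lines mark the probe set used for a gene, dotted lines its other sets and the dashed line the filter level of 39.2. Hes1 points are higher at 60 and 120 than at 0 minutes, with mutant below wild-type points at each time, Jag1 ran lower in mutant cells at its 2 brighter sets, and Notch2 was the brightest of the genes.

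The targets differed among themselves. Hes1 had intensities of 3.18, 45.3 and 34.8 in mutant cells and of 14.8, 178 and 104 in wild-type cells at 0, 60 and 120 minutes. At 0 minutes both arrays were below the filter level, at 60 minutes both were above it, and at 120 minutes the mutant array was below and the wild-type array above. The mutant array was the lower at each of the 3 times, although the groups overlap when times are pooled. Plain intensity in mutant cells was 0.254 of that in wild-type cells at 60 minutes and 0.335 at 120 minutes. As a rank within its own array, Hes1 was at or above 55.2% of probe sets at 60 minutes in mutant cells and 74.0% in wild-type cells.

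Across times Hes1 was lower in mutant cells by log2 -1.20 ± 0.16 (SE; 95% interval -1.56 to -0.84; limma adjusted p = 0.000989). Since its wild-type arrays alone carried it past the filter, the fit without the filter counts beside it, and there the adjusted p was 0.00158. By time it came to -0.68 (0 minutes), -1.67 (60 minutes) and -1.24 (120 minutes), so the estimate averages over unlike time points. Its size is set in part by the offset, with -1.81 at 1 and -0.72 at 64, because 2 of 3 mutant arrays and the wild-type array of 0 minutes were below the filter level, and with all intensities below the filter level raised to it the difference was -0.93 (adjusted p = 0.0237). Without time as the block the call was lost (adjusted p = 0.702). That fit leaves the changes over time in the error and does not alter the estimate. Fits below without genotype as the block likewise leave the genotype difference in the error. A lower share of expressing cells and less transcript per cell cannot be told apart in such bulk RNA.

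Hey1 and Heyl, repressors related to Hes1, stayed at low intensity throughout. Hey1 read 28.2, 22.03 and 34.8 in mutant and 30.6, 26.3 and 33.9 in wild-type cells at 0, 60 and 120 minutes, which overlap. The brightest of 3 Heyl probe sets read 40.3, 27.3 and 31.2 in mutant cells, with 1 array just above the filter level, and 33.5, 33.5 and 34.2 in wild-type cells. The other Heyl sets lay between 6.67 and 18.8 on all arrays.

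Of the ligands, Jag1 differed between genotypes. Jag1 encodes Jagged-1, a membrane-bound ligand, and read 289, 387 and 379 in mutant cells and 438, 536 and 568 in wild-type cells at 0, 60 and 120 minutes. Every mutant array was below every wild-type array, a pattern that 7.63% of tested genes had. Jag1 averaged 352 ± 54.4 in mutant and 514 ± 68.1 in wild-type cells (SD over the 3 times, which holds the time response). The log2 difference was -0.53 ± 0.057 (SE, 95% interval -0.66 to -0.40, limma adjusted p = 0.000245). The gap was alike at the 3 times, at -0.57, -0.45 and -0.57. It too lost its call without time as the block (adjusted p = 0.276).

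The other probe sets of Jag1 did not all follow. A set of middle brightness read 73.9, 106 and 102 in mutant and 146, 152 and 156 in wild-type cells, a log2 difference of -0.62 ± 0.094 (adjusted p = 0.00545 when each probe set was fitted on its own). The dimmest ranged from 36.6 to 48.0 in mutant and from 33.2 to 42.5 in wild-type cells, around the filter level, with a difference of 0.11 (adjusted p = 0.621).

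RefSeq promoters (GRCm38.p6, 250 bases before to 50 after the annotated start) were read for 5 of the 8 genes, as 6 promoters. These genes were Jag1, Dll1, Notch1, Notch2 and Notch3. No promoter of Hes1, Hey1 or Heyl was at hand, so none of these repressor genes was searched. The 6 promoters were searched on both strands for TGGGAA, the core bound by RBPJ, and for CACNAG, the N box bound by HES proteins. The E box CACGTG, the AP-1 motif TGANTCA and the CRE TGACGTCA were searched as well. The promoter of Jag1 is shown because Jag1 was the gene with a promoter in the table that differed between genotypes. Its 250 bases before the start, chr2:137116521-137116770 on the minus strand, hold none of the 5 motifs, and so no letter is in capitals.
Jag1: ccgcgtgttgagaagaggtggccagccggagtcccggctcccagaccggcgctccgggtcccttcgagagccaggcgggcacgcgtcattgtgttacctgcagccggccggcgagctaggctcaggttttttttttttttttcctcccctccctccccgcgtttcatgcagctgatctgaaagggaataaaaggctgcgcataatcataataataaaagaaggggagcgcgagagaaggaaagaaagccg
TGGGAA was in none of the 6 promoters and in 25.6% of 32851 promoters of the same length. CACNAG was in promoters of Notch1, Notch2, Notch3 and Dll1, and in 42.5% of all. A pair of the matches in Notch1 overlap. TGANTCA was in 1 of the Dll1 promoters and in 7.81% of all, while CACGTG (7.15% of all) and TGACGTCA (1.79%) were in none of the 6.

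Dll1, the Delta-like ligand on this list, read 36.9, 32.9 and 32.2 in mutant and 29.2, 29.5 and 32.8 in wild-type cells, with overlapping groups and every array below the filter level.

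The 3 receptors spanned a wide range of intensity, which is not a comparison of transcript number because probe sets differ in brightness. Notch2 read 1525, 1467 and 1285 in mutant and 1614, 1613 and 1298 in wild-type cells at 0, 60 and 120 minutes. Mutant arrays lay slightly below wild-type arrays at each time and the groups overlap, with a log2 difference of -0.08 ± 0.046 (95% interval -0.18 to 0.03; adjusted p = 0.286). A dim second set of Notch2 lay between 16.4 and 38.7.

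Notch1 read 107, 105 and 105 in mutant and 137, 112 and 108 in wild-type cells. Its log2 difference was -0.15 ± 0.084 (95% interval -0.34 to 0.04; adjusted p = 0.256), most of it from 0 minutes (-0.31) rather than 60 (-0.09) or 120 minutes (-0.04). Notch3 lay between 21.1 and 34.4 in mutant and between 23.4 and 29.6 in wild-type cells over its 2 sets, 1 of which carries the suffix of sets that may match several transcripts. The sets used below for Dlk1, Aph1a, Maml1, Kat2b and Mib2 carry that suffix too.

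Hes1 and Jag1 were thus the genes called lower in mutant cells, where 8.92% of all genes in the filtered fit were called lower and 10.4% higher. Nothing is read from a count over the 4 genes that passed the filter, since Hes1 passed through the group where it was high. In the fit without the filter, which takes in all 8 genes, Hes1 and Jag1 passed and the other 6 did not, against 10.1% of all genes. The 4 dim genes had differences from -0.07 to 0.11 there (adjusted p from 0.568 to 0.900).

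**Figure D2:**
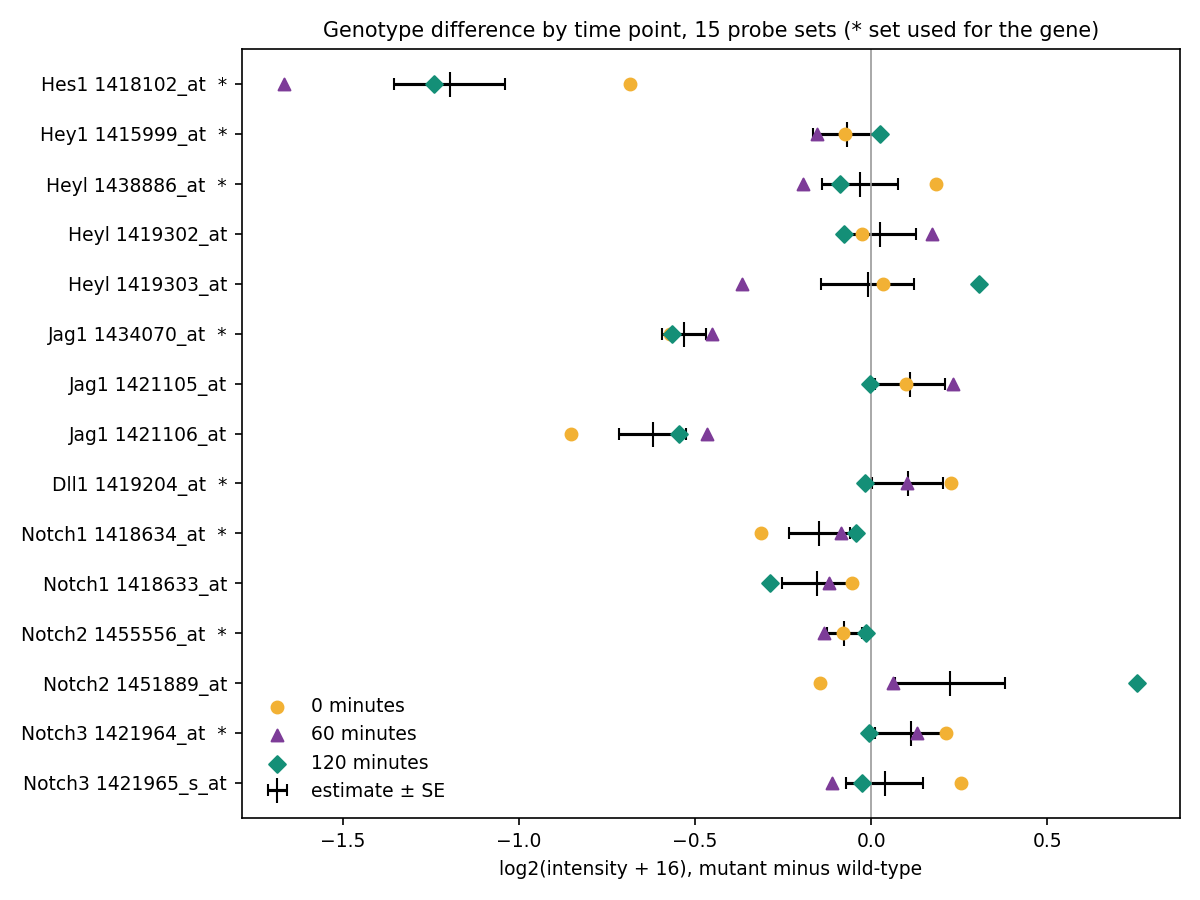
Difference in log2(intensity + 16), mutant minus wild-type, for each of the 15 probe sets at 0 minutes (circles), 60 minutes (triangles) and 120 minutes (diamonds), with the estimate over times and its SE as a bar. Hes1 and 2 of the 3 Jag1 sets lie left of 0 at every time, and Hes1 is spread from -0.68 to -1.67.

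Over time, Hes1 and, by less, Jag1 rose across the genotypes. Hes1 was higher at 60 than at 0 minutes by log2 2.17 ± 0.20 (SE; n = 2 arrays per time; limma adjusted p = 4.21e-05, and 7.68e-05 without the filter). Both 0 minute arrays were below the filter level, so the size is not fixed by the data: it was 3.49 at an offset of 1 and 1.16 at 64. At 120 minutes it was still above 0 minutes by 1.68 ± 0.20 (adjusted p = 8.71e-05), or by 2.91 and 0.82 at those offsets. With intensities below the filter level raised to it, the difference was 0.98 at 60 minutes (adjusted p = 0.0430) and 0.56 at 120 minutes (adjusted p = 0.143), so the second call was lost. Without genotype as the block, the adjusted p was 0.114 at 60 and 0.0912 at 120 minutes.

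At 120 minutes, compared with 60, Hes1 read 0.769 of its 60 minute intensity in mutant and 0.583 in wild-type cells. The fitted difference of -0.48 ± 0.20 did not pass (95% interval -0.93 to -0.04 before adjustment; adjusted p = 0.108). It passed without the mutant array of 0 minutes (-0.48, adjusted p = 0.0194), without that of 60 minutes (-0.83, adjusted p = 0.00953), or without the wild-type array of 0 minutes (-0.48, adjusted p = 0.0252). Without the wild-type array of 60 minutes it shrank to -0.13 (adjusted p = 0.737), so its size rests on single arrays.

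Jag1 was higher than at 0 minutes by log2 0.34 ± 0.070 at 60 minutes (adjusted p = 0.00759) and by 0.37 ± 0.070 at 120 minutes (adjusted p = 0.00179), with 0.03 between 60 and 120 minutes. The 60 minute call was lost without the mutant array of 0 minutes (adjusted p = 0.0714) or of 60 minutes (adjusted p = 0.0830), and both calls were lost without genotype as the block (adjusted p = 0.570 and 0.364). The set of middle brightness gave 0.24 at both times and did not pass on its own (adjusted p = 0.293 and 0.216).

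Among the receptors, Notch2 was lower at 120 minutes than at 0 minutes by log2 -0.28 ± 0.057 (adjusted p = 0.00278) and than at 60 minutes by -0.25 ± 0.057 (adjusted p = 0.00938). Averaging all probe sets of the gene, with the dim set included, ended both calls (adjusted p = 0.116 and 0.195). The second was also lost without the wild-type array of 60 minutes (adjusted p = 0.0958), without that of 120 minutes (0.0752), and without genotype as the block (0.111). Notch1 differed by -0.15 at 60 and -0.17 at 120 minutes, and neither passed (adjusted p = 0.358 and 0.211). A second Notch1 set lay between 25.8 and 43.4, and the average of both sets passed at 120 minutes, at -0.25 (adjusted p = 0.0293).

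At 60 minutes Hes1 and Jag1 were called higher, against 7.34% higher and 10.7% lower among all genes in the filtered fit. At 120 minutes, compared with 0, they were again called higher and Notch2 lower, against 16.2% and 30.8%. Between 60 and 120 minutes Notch2 was called lower, against 10.2% higher and 15% lower. Comparisons with 0 minutes share the arrays of that time. In the fit without the filter, 9.4%, 27.1% and 13.4% of all genes passed in these 3 comparisons, the same calls were made for these genes, and Hey1, Heyl, Dll1 and Notch3 did not pass (adjusted p from 0.125 to 0.968). Among control probe sets of Actb, the 5' intensity over the 3' one, which reflects RNA quality, was 0.505 in mutant and 0.579 in wild-type cells at 0 minutes. At later times it was 0.650 to 0.699. The same ratio for Gapdh was 0.954 in mutant and 1.02 in wild-type cells at 0 minutes and 0.991 to 1.03 later. The part of RNA quality in these changes was not tested.

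Whether Hes1 rose less in mutant cells depended on the scale. In intensity units it gained 42.1 in mutant and 164 in wild-type cells in the first hour. As log2(intensity + 16) the rise was 1.68 in mutant and 2.66 in wild-type cells, a difference of -0.98. With an offset of 1 the rises were 3.47 and 3.50, a difference of -0.03, and plain intensity rose 14.2-fold in mutant and 12.03-fold in wild-type cells. With an offset of 64 the rises were 0.70 and 1.62. At 120 minutes the difference in change since 0 minutes was -0.56 at an offset of 16, 0.37 at 1 and -0.54 at 64, so its sign turned. Both 0 minute arrays, which enter each of these changes, read below the filter level for Hes1. No residual degrees of freedom remain for this comparison, so it has no test.

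**Figure D3:**
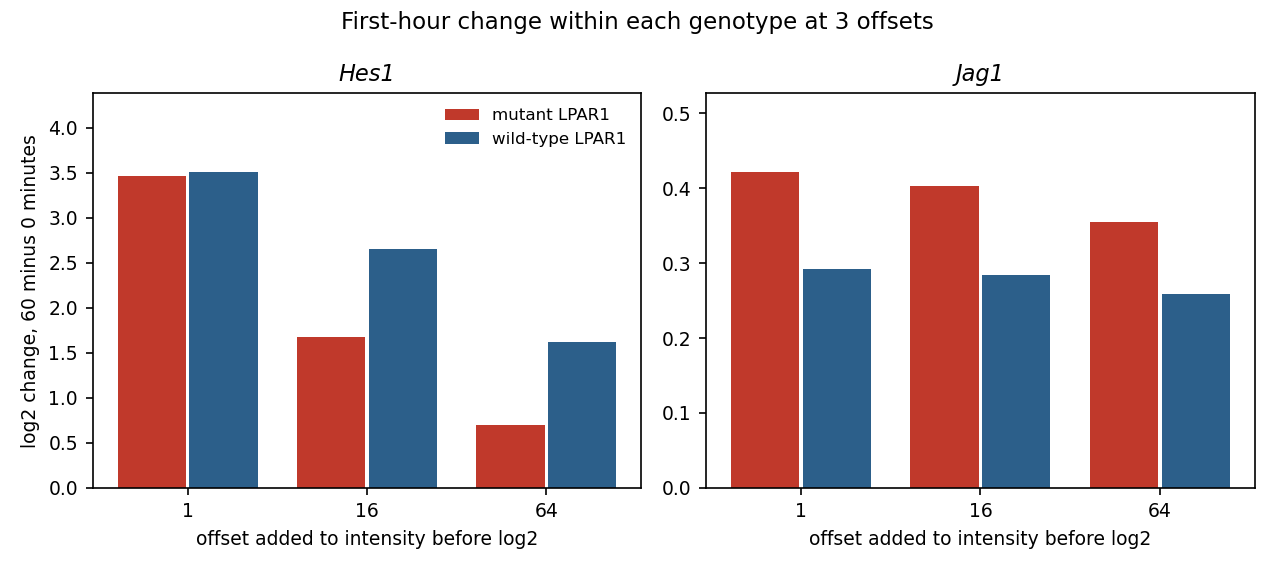
Log2 change from 0 to 60 minutes for Hes1 and Jag1 within mutant and wild-type cells after adding an offset of 1, 16 or 64 to the intensity, as bars of 1 array pair each. For Hes1 the bars are 3.47 and 3.50 at an offset of 1 but 0.70 and 1.62 at 64, while for Jag1 the mutant bar is the higher at every offset.

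Jag1, which is bright, depended little on the offset. Its first-hour change was 0.40 in mutant and 0.28 in wild-type cells at an offset of 16, and 0.35 and 0.26 at 64. The difference of these changes was 0.12 at 60 and 0.01 at 120 minutes. For Notch1 it was 0.23 and 0.27, and for Notch2 -0.05 and 0.07.

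Hes1 was the 1 gene of the list whose log2 level spanned at least 1 over the 6 arrays. Among 984 other tested genes with such a span, the 4 most like it were Tuft1 (Pearson's r = 0.985), Glipr2 (0.941), Taf5l (0.934) and Gcnt2 (0.933). Each r is over 6 arrays that share genotype and time, and is given as a description. Tuft1, first known as a protein of developing tooth enamel, read 39.2, 120 and 73.7 in mutant and 59.9, 222 and 165 in wild-type cells at 0, 60 and 120 minutes. Like Hes1 it was highest at 60 minutes and lower in mutant cells at each time. Gcnt2, a glycosyltransferase gene, read 14.1, 169 and 93.4 in mutant and 21.5, 249 and 187 in wild-type cells.

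**Figure D4:**
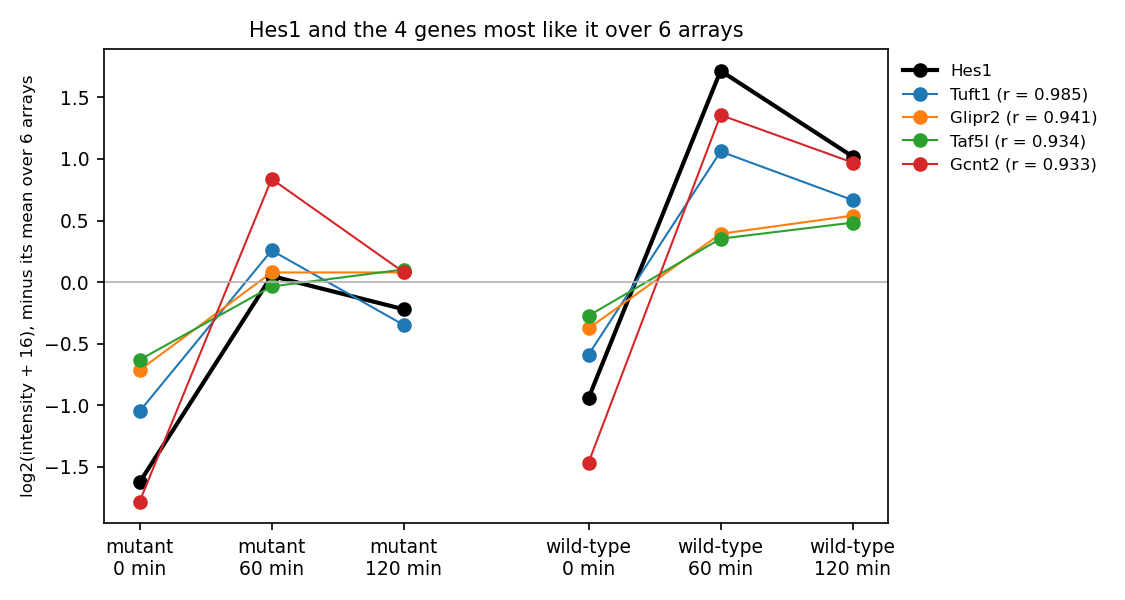
Log2(intensity + 16) minus its mean over the 6 arrays, for Hes1 (black) and the 4 genes with the highest Pearson's r with it, in mutant cells (left) and wild-type cells (right) at 0, 60 and 120 minutes. Hes1, Tuft1 and Gcnt2 peak at 60 minutes on both sides, while Glipr2 and Taf5l are no lower at 120 than at 60 minutes in wild-type cells.

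The rest of the pathway was described from a list of 64 further genes, of which 59 had a probe set paired with them alone and 49 passed the filter. For genotype 3 were higher and 2 lower, or 10.2% of the 49 against 19.3% of all genes tested, with a median difference of 0.01 in both. Among ligands, Dlk1, a Delta-like protein without the domain that activates Notch receptors, was lower: it read 16.2, 19.3 and 29.0 in mutant and 70.4, 73.0 and 72.8 in wild-type cells (log2 -1.25 ± 0.12; adjusted p = 0.000106). All mutant arrays were below the filter level and all wild-type arrays above it, so Dlk1 too passed the filter through its wild-type arrays. It passed without the filter as well (adjusted p = 0.000152), but its size was -1.74 at an offset of 1, -0.67 at 64 and -0.67 with low intensities raised to the filter level. A dimmer set, at 3.39 to 6.64, gave -0.08. The other 2 tested ligands did not pass.

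Of 5 tested genes of the nuclear complex, Rbpj was higher in mutant cells, at 1361, 1147 and 907 against 1074, 1016 and 683 in wild-type cells (log2 0.30 ± 0.056; adjusted p = 0.00518). Its other 2 sets gave 0.18 and 0.10. Of 8 tested genes that cut receptors or ligands, Aph1a, a subunit of gamma-secretase, was higher by 0.22 ± 0.058 (adjusted p = 0.0246), with 0.06 and 0.12 at its other sets. Of 11 corepressor genes the histone deacetylase Hdac1 was higher by 0.18 ± 0.056 (adjusted p = 0.0467) and the Groucho-related Tle3 lower by -0.27 ± 0.067 (adjusted p = 0.0201). Without either array of 0 minutes the calls of Aph1a (adjusted p = 0.191 and 0.186) and Hdac1 (0.281 and 0.277) were lost, Hdac1 also without either array of 60 minutes (0.118 and 0.117), and Tle3 without any array of 60 or 120 minutes (0.0553 to 0.0744). Averaging all probe sets ended the calls of Aph1a and Tle3 (adjusted p = 0.121 for each). Hdac1 had a single set, so its estimate stayed at 0.18, but it did not pass in that fit (adjusted p = 0.0597). Without the trend in shrinkage Aph1a (0.0652) and Hdac1 (0.128) did not pass, and without the filter Hdac1 did not (0.0709). Without time as the block Rbpj, Aph1a, Hdac1 and Tle3 did not pass (adjusted p from 0.447 to 0.748). The other 44 genes did not pass.

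At 60 minutes 5 of the 49 were higher and 7 lower than at 0 minutes, or 24.5% against 18% of all genes tested. The targets Myc and Id1, which many growth signals besides Notch induce, were higher by log2 2.02 ± 0.067 and 1.18 ± 0.084. Among corepressors of the Groucho family Tle4 was higher by 0.83 ± 0.12, whereas Tle2 and Tle1 were lower by -0.48 ± 0.083 and -0.41 ± 0.073. A second Tle1 set gave -0.01. The ubiquitin ligase gene Dtx2 was lower by -0.35 ± 0.062. Adjusted p-values of these 6 genes ran from 2.35e-08 to 0.00388. Averaging sets ended the call of Tle1 (adjusted p = 0.0545), and leaving out genotype as the block those of Tle4 (0.0648), Tle1 (0.0834) and Dtx2 (0.0516). Calls of Maml1 (0.36) and Tle3 (0.29), which were higher, and of Hes6 (-0.48), Id3 (-0.44) and Mib2 (-0.33), which were lower, were each lost without the wild-type array of 0 minutes (adjusted p from 0.111 to 0.330), and some without other arrays. Dtx3 was lower by -0.23 ± 0.071 (limma adjusted p = 0.0473). It did not pass when each probe set was fitted on its own (adjusted p = 0.116).

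Between 60 and 120 minutes all 5 tested genes of the nuclear complex fell, against 15% of all genes tested. It was the group of the list with the largest share called in that hour. Rbpj changed by log2 -0.45 ± 0.068 (adjusted p = 0.000959), with -0.47 at both other sets, and Maml1 by -0.42 ± 0.079 (adjusted p = 0.00332). The acetyltransferase genes Ep300 and Kat2b changed by -0.34 ± 0.075 and -0.26 ± 0.058, and Snw1, which binds RBPJ, by -0.26 ± 0.066. Without the mutant array of 60 minutes Ep300 (adjusted p = 0.0507) and Kat2b (0.0844) did not pass, without that of 120 minutes Ep300 (0.0778) and Snw1 (0.0795) did not, and without the wild-type array of 60 minutes Snw1 did not (0.122). Averaging all probe sets ended the calls of Kat2b (0.246) and Snw1 (0.546), and without genotype as the block none of the 5 passed (adjusted p from 0.0704 to 0.173). Larger changes were among the 7 tested other targets, of which 1 was called higher and 3 lower in that hour. Id3 changed by -2.06 ± 0.12, Id1 by -1.39 ± 0.084, Myc by -1.35 ± 0.067 and Ccnd1 by 0.53 ± 0.056. Among genes of trafficking and turnover, Dtx4 changed by -0.60 ± 0.087 (limma adjusted p = 0.000716), Neurl1a by -0.34 ± 0.10 and Fbxw7 by 0.26 ± 0.070. The corepressor gene Cir1 changed by -0.50 ± 0.10 (adjusted p = 0.00494). When each probe set was fitted on its own, the sets used for Neurl1a (adjusted p = 0.0814) and Fbxw7 (0.0750) did not pass, though a second Fbxw7 set did (0.0439). Over the whole list 2 rose and 11 fell in that hour, or 26.5% against 25.2% of all genes. At 120 minutes 7 were higher and 17 lower than at 0 minutes, or 49.0% against 47.0%. Id3 had the largest difference on the list, at -2.50 ± 0.12, and the other genes called in that comparison are not named.

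**Figure D5:**
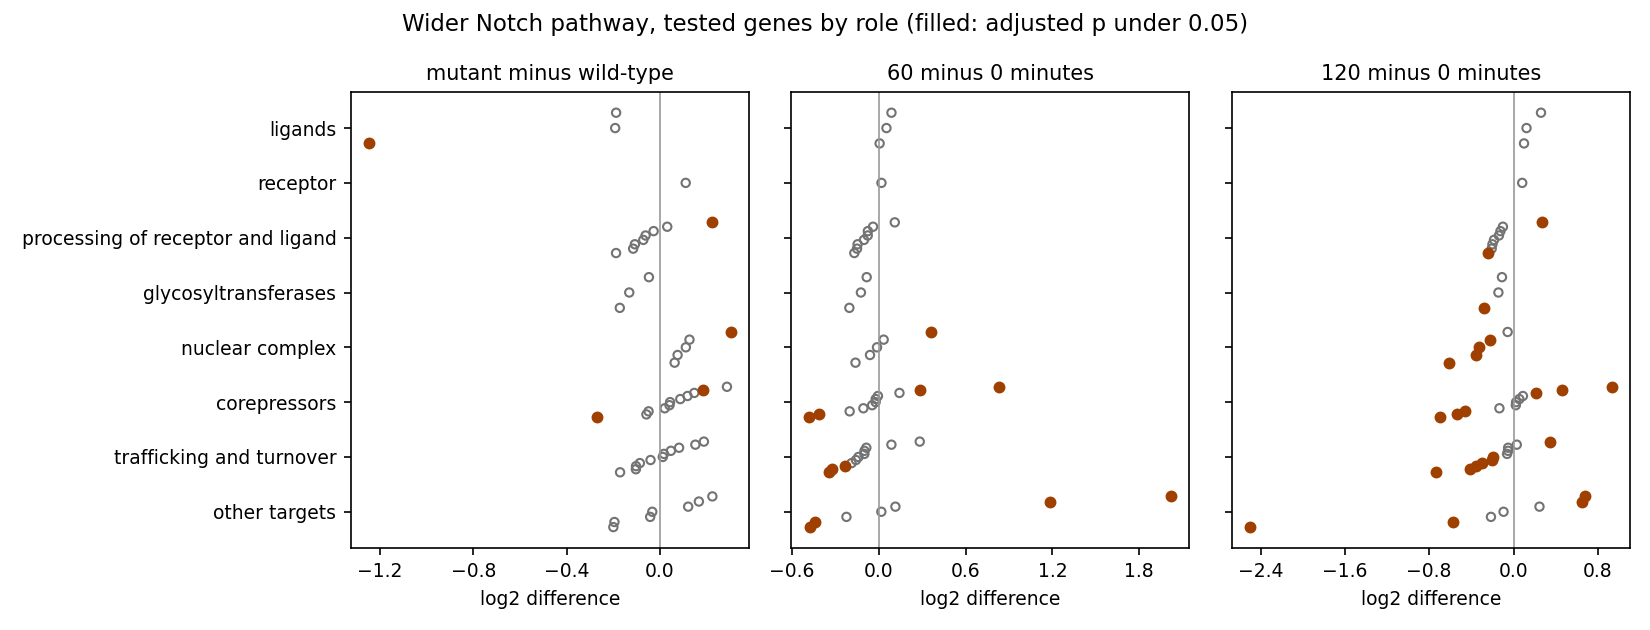
Log2 difference of the 49 tested genes of the wider pathway list by role, in a genotype panel (mutant minus wild-type) and panels of 60 and of 120 minutes against 0 minutes, with 1 point per gene and filled points for an adjusted p under 0.05. The horizontal scales differ between panels. Dlk1 stands alone on the left of the genotype panel at -1.25, and Myc (2.02) and Id3 (-2.50) reach furthest in the time panels.

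Lfng, a glycosyltransferase that modifies Notch receptors and thereby alters their response to ligands, was below the filter and so not in the filtered fit. Its brighter set read 20.1, 57.0 and 47.1 in mutant and 7.58, 34.1 and 34.8 in wild-type cells at 0, 60 and 120 minutes. When each probe set was fitted on its own, this set was higher in mutant cells by log2 0.49 (limma adjusted p = 0.0278), and higher than at 0 minutes by 1.05 at 60 minutes (adjusted p = 0.000693) and by 0.96 at 120 minutes (adjusted p = 0.000547). Both 0 minute arrays and all wild-type arrays of the brighter set were below the filter level, so these sizes are not fixed by the data. Lfng was named after its values were seen. Its second set, at 8.13 to 14.0, passed in none of these comparisons (adjusted p from 0.332 to 0.864).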

How the data were processed

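Total RNA of 6 NIH3T3 samples was hybridised to 6 arrays. The authors deposited linear intensities, 1 per probe set; the submitters' processing notes name Affymetrix Power Tools 1.14.3.1 with PLIER. Background correction and scaling between arrays are not given in the sources used here. No further scaling was applied.

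Probe sets were named from the platform's annotation where they were paired with 1 gene (34945 of 45101), with symbols updated through a RefSeq table of GRCm38.p6 (34741 matched). Intensities were used as log2(intensity + 16), the brightest probe set on average stood for a gene, and a filter at the 40th percentile of mean level kept 10916 of 18193 genes.

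limma 3.58.1 in R 4.3.3 fitted genotype and time as additive terms with a trend in shrinkage, 2 residual degrees of freedom and 7.78 prior ones. The residuals are departures from additivity, so noise and a genotype difference that varies with time cannot be told apart. Tests were two-sided with Benjamini-Hochberg adjustment over all genes within a contrast. Time, taken from the labels, pairs the arrays of the genotypes: deviations from genotype means correlated across genes at r = 0.911, 0.756 and 0.871 for arrays of 0, 60 and 120 minutes, values that hold the shared time response. The fit was tested on simulated data.

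Genes named were the 8 members with all probe sets. From the 64-gene list, up to 4 genes by size of change were named among those that passed in each group. For 120 against 0 minutes this was not done, and of that list Id3 alone, the largest change, was named. The 4 genes with the highest r with any member spanning at least 1 on the log2 scale were named too. The marker gene Cdh5, the dim Lfng and the smallest of 5 changes of the nuclear complex were named after their values were seen. Members and lists were chosen with earlier results of these data known. Alternatives were other offsets, filters, scalings, uses of probe sets, shrinkage, no block, and each array left out; 2 more, an offset of 1 on the same genes and raising low intensities to the filter level, were added after seeing the data. The number of arrays limits the precision.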

Additional observations from a re-analysis of the deposited data

How the results depend on the processing

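The genotype difference of Hes1 and Jag1 kept its direction in every alternative that gave a value, and passed in all of them except the fit with no replicate block, where both estimates were the same (-1.20 and -0.53) but the adjusted p was 0.702 and 0.276. Over arrays left out it ran from -1.45 to -0.96 for Hes1 and from -0.57 to -0.51 for Jag1. Without 1 array of a pair, its partner no longer bears on this estimate. With the filter applied at an offset of 1, or at the 60th percentile, Hes1 fell below the filter and was not tested, so 1 member rather than 2 was lower in mutant cells and 1 rather than 2 higher at 60 and at 120 minutes. Raising low intensities to the filter level left 1 member higher at 120 minutes. With no replicate block 0 members passed for genotype, as rises at 60 or 120 minutes, or as falls from 60 to 120 minutes, and averaging probe sets left 0 falls from 60 to 120 minutes in place of 1. Over arrays left out, 1 to 2 members were higher at 60 minutes and 0 to 2 lower from 60 to 120 minutes.

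Counts over all genes moved more. For genotype 2112 genes passed, against 1397 without the trend, 89 with no replicate block and 1373 to 2163 with an array left out. For 60 against 0 minutes 1969 of 10916 genes passed, against 585 with no replicate block and 1156 to 2516 with an array left out. Of 45037 probe sets fitted on their own 3422 passed. For 120 against 0 minutes 5130 genes passed, against 2772 with no replicate block, and 8383 of the 45037 probe sets. For 120 against 60 minutes 2746 genes passed, against 1007 with no replicate block. Counts of genes and of probe sets have unlike totals and are not to be compared. The cause of the other shifts was not tested.

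Reversals of sign were of values near 0 or near the filter level. For Notch2 they were the genotype difference with all probe sets averaged (0.074), the 60 minute difference with arrays centred on their median (0.036) and the difference of its first-hour changes with all sets averaged (0.075). The Hes1 difference of changes at 120 minutes became 0.37 at an offset of 1. Over arrays left out, differences between 120 and 60 minutes ran from -0.033 to 0.083 for Jag1 and from -0.10 to 0.057 for Notch1, and the 60 minute difference of Notch2 from -0.072 to 0.016.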
